A study of Drosophila melanogaster with 4 samples.

Results

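The CYP4-clan cytochrome P450 genes were examined in whole third-instar larvae of Drosophila melanogaster at 100 h after egg laying. They were taken by symbol (Cyp4, Cyp311, Cyp312, Cyp313, Cyp316 or Cyp318 followed by a letter, without Cyp4g1), which gave 31 genes in 30 of the 16198 rows of the deposited gene table, with Cyp4ac2 and Cyp4ac3 in 1 row. One group was labelled wildtype. The other was labelled kr-h1 mutant, and its larvae were homozygous for the kr-h1[7] allele of the zinc-finger transcription factor gene Kr-h1, which acts downstream of juvenile hormone. Polyadenylated RNA was sequenced from 2 libraries per group, all at the same age and on the same rearing protocol. The sources used here give neither the strain behind the wildtype label nor the number of larvae in a library.

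Each group carries 1 FPKM value per gene, which is a level scaled to transcript length and sequencing depth, so no value below has a replicate error. How deeply the libraries were sequenced is unknown. A row is called higher or lower where Cuffdiff's q-value, read from the authors' deposited table, is at most 0.05, with the direction given for mutant-labelled relative to wildtype-labelled larvae. Kr-h1 itself was listed at 2.98 FPKM under the wildtype label and at 9.79 FPKM under the mutant label. It was called higher (q = 0.000889, the authors' deposited table), so every direction rests on the labels. In whole larvae, fewer cells of a type and less RNA per cell cannot be told apart.

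Cytochrome P450 enzymes are haem-containing monooxygenases that insert an oxygen atom into their substrate. CYP4 enzymes sit in the endoplasmic reticulum membrane, where they receive electrons from NADPH-cytochrome P450 reductase and, for some reactions, from cytochrome b5. In mammals CYP4 enzymes are best known for oxidising the far end of fatty acid chains. In insects the clan is large and tissue-restricted. Its best-studied fly member, Cyp4g1, makes cuticular hydrocarbons in the oenocytes, while most of the other members have no known substrate.

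Of the 30 rows, 15 were tested by Cuffdiff. Among these 3 fell (Cyp4d1, Cyp4ad1 and Cyp4e3), 1 rose (Cyp4s3) and 11 were not called. The called share of tested members was 26.7%, beside 13.0% of all 7058 tested genes, and no test set one share against the other. The lower calls made up 20.0% of the tested members, beside 8.73% of all tested genes, and the higher call 6.67%, beside 4.32%. Calls were more frequent among abundant genes. Among tested genes with at least 10 FPKM in a group 19.8% were called, 13.7% lower and 6.11% higher. The 4 called members were among the 10 members above that level, but 2 of them, Cyp4e3 and Cyp4s3, reached it only in the group where they were higher, so nothing is read from this count. An unadjusted p-value under 0.05 was given to 8 of the 15 members and to 25.8% of all tested genes, in the authors' deposited table. The second share was not computed for genes with at least 10 FPKM, so nothing is read from this count either. Ratios lay on both sides of 0. On the scale of log2((mutant-labelled FPKM + 1)/(wildtype-labelled FPKM + 1)), used for every log2 ratio below, the median of the tested members was 0.00, with 8 members above 0 and 7 below. The median of all tested genes was -0.03. The median absolute log2 ratio was 0.32 for the members and 0.30 for all tested genes.

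**Figure D1:**
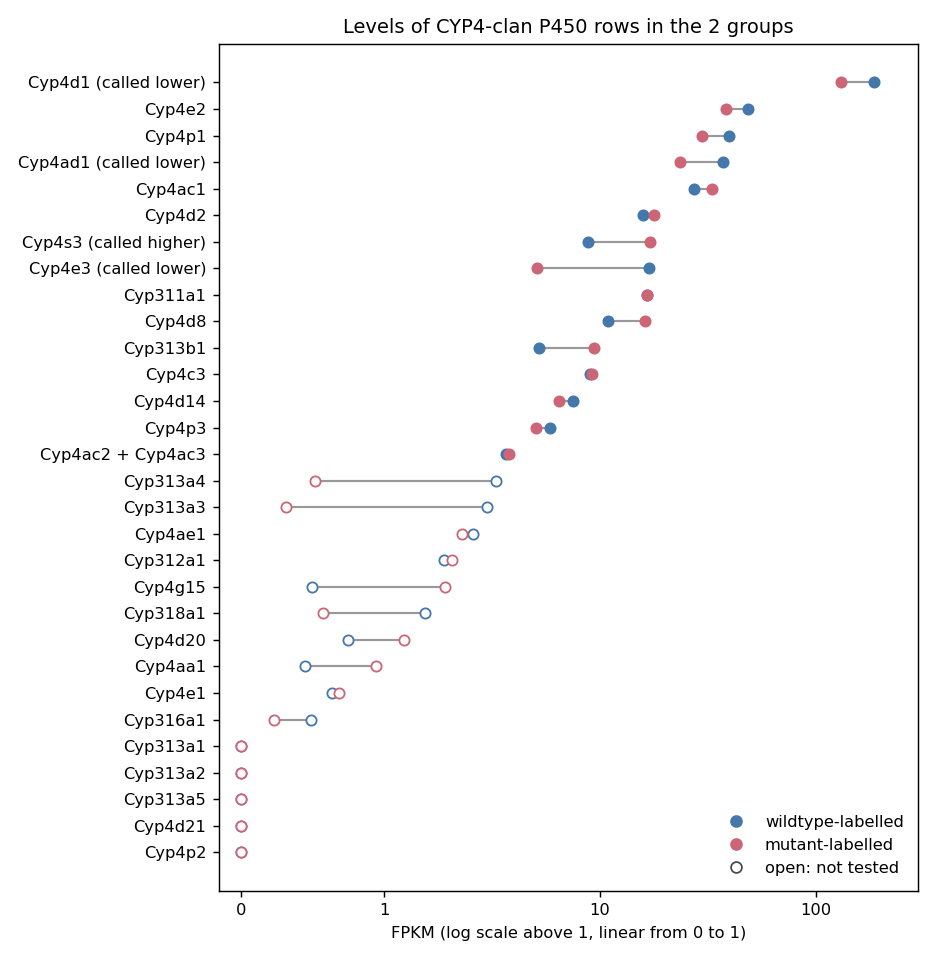
FPKM of each of the 30 CYP4-clan rows (x axis, logarithmic above 1 and linear from 0 to 1) in wildtype-labelled (blue) and mutant-labelled larvae (red), 1 value per group with no replicate error, ordered by the higher of the 2 values. Open circles are rows Cuffdiff did not test, and all of these lie below 3.31 FPKM or at a listed 0.

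Levels within the clan were uneven. The 30 rows summed to 453.7 FPKM under the wildtype and 373.4 FPKM under the mutant label, or 0.0801% and 0.0687% of all FPKM. Cyp4d1 alone held 40.9% of the clan's sum under the wildtype label and 35.1% under the mutant label. Without Cyp4d1 the sums were 268 and 242 FPKM. The next genes in wildtype-labelled larvae were Cyp4e2, Cyp4p1, Cyp4ad1 and Cyp4ac1, and with Cyp4d1 these held 74.6% of the sum. The same 5 rows stood at the top under the mutant label with 68.6% of the sum, where Cyp4ac1 moved from rank 5 to rank 3 and Cyp4ad1 from rank 4 to rank 5. The median level of the tested members was 15.9 and 16.5 FPKM, beside 11.0 and 11.1 FPKM for all tested genes.

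Cyp4d1 was the most abundant member under both labels and was among the genes that fell. It was at 186 FPKM under the wildtype label and 131 FPKM under the mutant label, which is 1.42-fold lower (log2 ratio -0.50), and the authors' deposited table gave it a q-value of 0.000889. That is the smallest q-value in the table, and many other rows share it, so it does not set Cyp4d1 above them. The fold was ordinary for a called gene, since Cyp4d1 ranked 307 of the 616 genes called lower when these were ordered by log2 ratio from the lowest. In FPKM, however, its difference of -54.5 was most of the difference of -80.3 in the sum of the clan. The row was listed at chrX:2159145-2162180, shared its locus with no other row and pooled 2 RefSeq transcripts of the gene, so a change in 1 transcript cannot be told from a change in both.

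Among the other Cyp4d genes no member was called. Cyp4d8 was listed at 10.9 and 16.1 FPKM, 1.48-fold higher under the mutant label, and the authors' deposited table gave it an unadjusted p-value of 0.0459 and a q-value of 0.183. Cyp4d2 had 15.9 and 17.8 FPKM, and Cyp4d14 7.51 and 6.49 FPKM, with q = 0.750 and q = 0.803 by the authors' deposited table. Both sides of 0 were therefore taken within this subfamily, with log2 ratios from -0.50 for Cyp4d1 to 0.53 for Cyp4d8 and a median of -0.01. Cyp4d20 was low (0.746 and 1.23 FPKM) and not tested. Cyp4d21, also known as sxe1 (sex-specific enzyme) and expressed more in adult male than female heads, was listed at 0 in both groups.

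**Figure D2:**
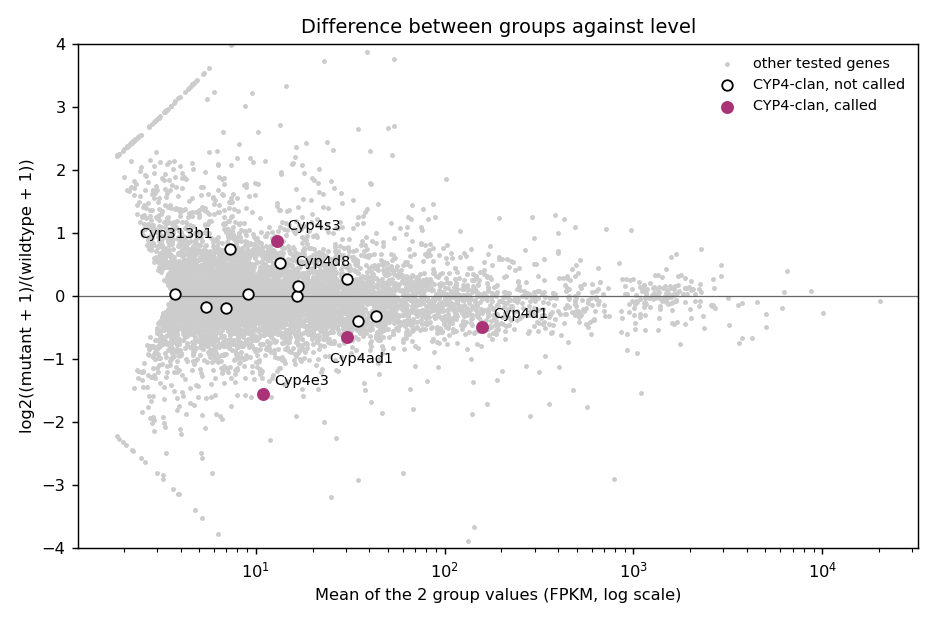
Log2 ratio of mutant-labelled over wildtype-labelled FPKM, with a pseudocount of 1 (y axis), against the mean of the 2 group values in FPKM (x axis, logarithmic), for 7058 tested genes (grey) and the 15 tested CYP4-clan rows (open circles not called, filled circles called). Axis limits of 4 leave out 20 genes. Cyp4e3 lies at -1.55, below the other members, and Cyp4s3 at 0.87 above them.

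Cyp4e3 showed the largest fold of any tested member. Work in adult flies has tied this gene to tolerance of the pyrethroid permethrin, through its expression in the Malpighian tubules, the renal organ. It stood at 16.8 FPKM under the wildtype label and at 5.09 FPKM under the mutant label, 3.31-fold lower (log2 ratio -1.55; q = 0.0115, the authors' deposited table). By log2 ratio, with the pseudocount of 1 FPKM, it ranked 27 of the 616 genes called lower. With a pseudocount of 10 FPKM the log2 ratio of Cyp4e3 was -0.83. Its rank within the clan went from 6 under the wildtype label to 13 under the mutant label. The row was listed at chr2L:9747839-9750071, where no other row shared its locus and no other annotated exon overlapped its exons.

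No tested tubule marker was called beside Cyp4e3. Of 6 Malpighian tubule markers 4 were tested and 0 were called by Cuffdiff, beside 13.0% of all tested genes. In so few rows 0 calls carries little information. The median log2 ratio of the 4 tested markers was 0.36. The 1 marker at an unadjusted p-value under 0.05 was Irk3, with 5.10 and 11.5 FPKM, higher under the mutant label. The authors' deposited table gave Irk3 an unadjusted p-value of 0.0101 and a q-value of 0.0671. The 6 rows summed to 161 FPKM under the wildtype and 192 FPKM under the mutant label. The row of Uro, the tubule urate oxidase gene, which also covers CG7164, had 123 and 139 FPKM, most of both sums. Whether tubule content differed between the groups was not tested.

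The other Cyp4e genes are neighbours on arm 2R rather than beside Cyp4e3. Cyp4e2, the second most abundant member, was listed at 48.4 and 38.5 FPKM, 1.26-fold lower under the mutant label. It was not called (unadjusted p = 0.0192 and q = 0.105, the authors' deposited table). Cyp4e1 was low at 0.635 and 0.683 FPKM and was not tested. Between the 2 tested Cyp4e genes the difference in log2 ratio was large (-1.55 and -0.32), and whether they differ from each other was not tested.

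Cyp4ad1, next to Cyp4e2 on arm 2R, fell 1.60-fold. It stood at 37.4 FPKM under the wildtype label and 23.4 FPKM under the mutant label (log2 ratio -0.65), and the authors' deposited table gave it a q-value of 0.00235. It ranked 179 of the 616 genes called lower. It was listed at chr2R:8439395-8442806 in a row of 2 transcripts with a locus of its own.

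The Cyp4p genes were not called. Cyp4p1 was listed at 39.6 and 29.8 FPKM, 1.33-fold lower under the mutant label, and the authors' deposited table gave it an unadjusted p-value of 0.0298 and a q-value of 0.140. Cyp4p3 had 5.88 and 5.06 FPKM (log2 ratio -0.18), and Cyp4p2 was listed at 0 in both groups. These 3 genes lie side by side in 1 shared locus, and no annotated exon of another gene overlaps theirs. How alike their sequences are was not examined. Whether fragments were divided between them is therefore unknown, and a listed 0 for Cyp4p2 is uncertain.

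Cyp4s3 was the member that rose. It went from 8.81 FPKM in wildtype-labelled to 17.0 FPKM in mutant-labelled larvae, 1.93-fold higher (log2 ratio 0.87; q = 0.0189, the authors' deposited table). It ranked 114 of the 305 genes called higher by log2 ratio. Its row shares the locus chrX:15089682-15116542 with 2 other rows, CG9072 and Rab3-GEF. Exons of Rab3-GEF on the opposite strand cover 20.1% of the exonic length of Cyp4s3. That gene was listed at 0.487 and 0.750 FPKM, far below Cyp4s3.

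Cyp313b1 had a fold of similar size and was not called. It was listed at 5.21 and 9.41 FPKM, 1.81-fold higher under the mutant label, which is the largest fold among the uncalled tested members, and the authors' deposited table gave it an unadjusted p-value of 0.0246 and a q-value of 0.124. Its relatives Cyp313a3 (2.99 and 0.315 FPKM) and Cyp313a4 (3.31 and 0.515 FPKM) had lower values under the mutant label. They were not tested, so no direction is drawn from them. Cyp313a1, Cyp313a2 and Cyp313a5 were listed at 0 in both groups.

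Several members had nearly equal levels under both labels. Cyp311a1, which larvae need for a normal midgut epithelial surface, was listed at 16.5 FPKM in each group (log2 ratio 0.00; q = 0.982, the authors' deposited table). Cyp4c3 had 8.97 and 9.20 FPKM, and the row of Cyp4ac2 and Cyp4ac3 had 3.68 and 3.79 FPKM. Cyp4ac1, in the same locus as that row, was listed at 27.4 and 33.2 FPKM (q = 0.399, the authors' deposited table). No interval is available for any of these, so equal levels are not shown.

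**Figure D3:**
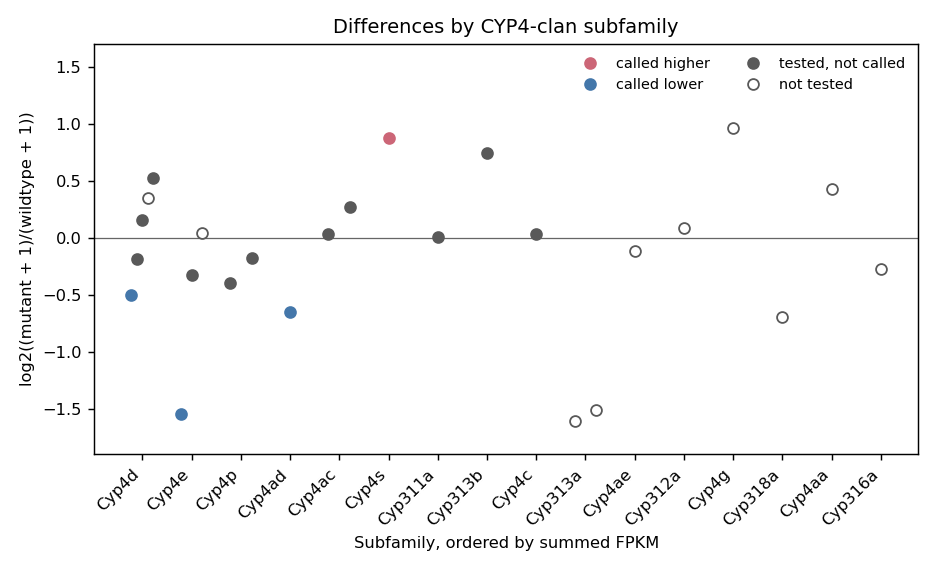
Log2 ratio of mutant-labelled over wildtype-labelled FPKM, with a pseudocount of 1 (y axis), for each CYP4-clan row listed above 0 in a group, by subfamily (x axis, ordered by summed FPKM). Blue and red mark rows called lower and higher, grey rows tested and not called, and open circles rows not tested. Both tested Cyp4e and both tested Cyp4p rows lie below 0, both Cyp4ac rows above 0, and the Cyp4d rows on both sides.

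By subfamily, the sum of all rows was lower under the mutant label for Cyp4d (221 and 173 FPKM), Cyp4e (65.8 and 44.2 FPKM), Cyp4p (45.5 and 34.9 FPKM) and Cyp4ad (37.4 and 23.4 FPKM). Cyp4d1 carries the sum of its subfamily, since the other Cyp4d rows summed to 35.0 and 41.7 FPKM. The sum was higher for Cyp4ac (31.1 and 37.0 FPKM), Cyp4s (8.81 and 17.0 FPKM) and Cyp313b (5.21 and 9.41 FPKM). It was close under both labels for Cyp311a (16.5 FPKM in each) and Cyp4c (8.97 and 9.20 FPKM). Cyp313a, with no tested row, summed to 6.30 and 0.829 FPKM, and the other subfamilies had 1 untested row each. Called rows were found in 4 of these subfamilies, with 1 in each of Cyp4d, Cyp4e, Cyp4ad and Cyp4s. The median log2 ratio of the tested rows was -0.94 for Cyp4e and -0.29 for Cyp4p (2 tested rows each), 0.15 for Cyp4ac (2 tested rows) and -0.01 for Cyp4d (4 tested rows). The median of Cyp4d was above 0 under 4 of 5 alternatives, such as centring on the median of all tested genes (0.02), so no direction is drawn for it.

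The 15 rows that were not tested were all scarce. In 10 of them a value above 0 was listed, between 0.235 and 3.31 FPKM, and 5 had the higher value under each label. Cyp4g15, a relative of Cyp4g1 expressed in the nervous system, had 0.498 and 1.92 FPKM, and Cyp318a1 had 1.55 and 0.575 FPKM. Cyp312a1 (1.89 and 2.06 FPKM) and Cyp4ae1 (2.57 and 2.30 FPKM) had closer values. Cyp4aa1 (0.446 and 0.940 FPKM) and Cyp316a1 (0.492 and 0.235 FPKM) stayed below 1 FPKM under both labels. The other 5 rows, Cyp313a1, Cyp313a2, Cyp313a5, Cyp4d21 and Cyp4p2, were listed at 0 in both groups, which at unknown depth does not show that they were silent.

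Many CYP4-clan genes lie close to one another, with 20 of the 31 genes within 20000 nucleotides of another member in 7 groups. The groups were set by distance alone. Neighbours could differ widely in level. On the X chromosome Cyp4d1 stood at 186 and 131 FPKM, while Cyp4d14, Cyp4d2 and Cyp4ae1, which follow it beyond 2 other coding genes, lay between 2.30 and 17.8 FPKM. None of these 3 was called. On arm 2R, Cyp4ad1 was called lower, its neighbour Cyp4e2 had a lower value without being called, and Cyp4e1 beyond it was below 1 FPKM. On arm 3L, Cyp4d8 (10.9 and 16.1 FPKM) adjoins Cyp316a1 (0.492 and 0.235 FPKM), and on the X chromosome Cyp311a1 adjoins the scarce Cyp318a1. The called genes Cyp4e3 and Cyp4s3 stand alone. The 4 called rows lie on 2L, 2R and X.

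**Figure D4:**
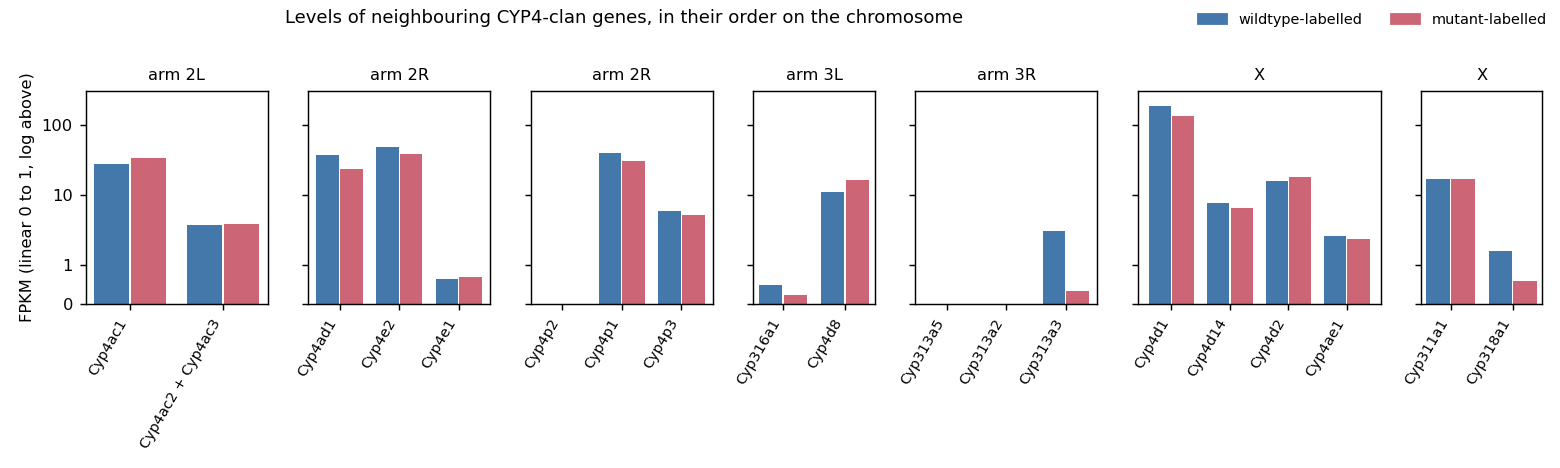
FPKM (y axis, linear from 0 to 1 and logarithmic above) of CYP4-clan genes that lie within 20000 nucleotides of another member, in chromosome order, in wildtype-labelled (blue) and mutant-labelled larvae (red), 1 value per group. Cyp4ac2 and Cyp4ac3 share 1 row of the table. Within the group on X that starts with Cyp4d1, the other genes reach at most 17.8 FPKM.

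For 8 of the 15 tested rows the locus is shared with another row, and annotated exons on the opposite strand overlap several members. Antisense RNA genes cover 98.7% of the exonic length of Cyp4d2, 96.2% of that of Cyp4d14 and 88.3% of that of Cyp4ae1. No source used here says whether counting was strand-specific, so the levels of these 3 genes may include antisense reads. The same limit applies to Cyp4s3, the member called higher, over the 20.1% of its exonic length that Rab3-GEF covers. Of the 4 called members, Cyp4d1, Cyp4ad1 and Cyp4e3 have loci of their own and no overlapping exons of another gene.

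The enzymes that pass electrons to P450s were also examined. Cpr, the NADPH-cytochrome P450 reductase gene that serves every P450 of the endoplasmic reticulum, fell 1.43-fold, from 83.4 to 58.5 FPKM, and the authors' deposited table gave it a q-value of 0.000889. Cyt-b5-r, a cytochrome b5-related gene that is not established as a partner of P450s, fell 1.36-fold (114.6 to 84.2 FPKM; the same q in the authors' deposited table). Cyt-b5 itself, in a row that also covers Gpo2, had 237 and 212 FPKM and was not called. Of the 6 tested rows listed with the electron donors, Cpr and Cyt-b5-r fell and 0 rose, with a median log2 ratio of -0.35, so Cpr was the 1 established donor that was called. All 6 rows reached 10 FPKM, a level at which 13.7% of tested genes were called lower. Alcohol and aldehyde dehydrogenases, which can oxidise the hydroxylated products of CYP4-type reactions further, fell in 2 of 4 tested rows, beside the same 13.7%, with a median log2 ratio of -0.49. The row of Adh and Adhr went from 2219 to 1310 FPKM, and Aldh from 444 to 191 FPKM, and both had q = 0.000889 by the authors' deposited table. Adh and Aldh are best known for the breakdown of ethanol.

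Cyp4g1, which is in the clan but not among the 31 genes, had 116 FPKM under the wildtype and 119 FPKM under the mutant label, without a call (q = 0.842, the authors' deposited table). Under the wildtype label Cyp4d1 exceeded it 1.60-fold, and under the mutant label 1.10-fold, a comparison of levels per length. In the CYP3 clan, 5 of 29 tested rows rose and 3 fell (median log2 ratio -0.08), beside 4.32% and 8.73% of all tested genes. Cuffdiff called 0 of 2 tested CYP2-clan and 0 of 8 tested mitochondrial-clan rows, with 1 and 4 of them at an unadjusted p-value under 0.05. With 13.0% of all tested genes called, 0 calls in so few rows carries little information. Among called CYP3-clan rows Cyp309a1 was 6.90-fold higher and Cyp28d2 3.75-fold lower. Whether the clans differ was not tested.

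Tissue markers are given beside 8.73% of all tested genes called lower and 4.32% called higher. Among tested genes with at least 10 FPKM in a group these shares were 13.7% and 6.11%. All 6 fat body markers fell, as did 5 of 6 muscle markers and 4 of 7 midgut markers, while 1 midgut marker rose. The median log2 ratio was -0.39 for the fat body, -0.40 for the muscle and -0.20 for the midgut list. Many of these rows lie far above 10 FPKM, where small differences were called, down to 1.10-fold for the muscle gene Mlc2. These shares are not matched to such levels, so the counts do not show large differences. The fat body rows summed to 23210 FPKM under the wildtype and 17936 FPKM under the mutant label, the muscle rows to 5761 and 4974 FPKM, and the midgut rows to 5903 and 3889 FPKM. Of the oenocyte markers 1 of 3 tested rose, with sums of 133 and 138 FPKM. Of the salivary gland markers 1 of 6 fell (2761 and 2433 FPKM) and of the haemocyte markers 2 of 5 tested fell (265 and 225 FPKM). The nervous system (21.2 and 20.1 FPKM) and testis lists (27.9 and 57.8 FPKM) had 2 and 1 tested rows and none was called in the deposited table, with 1 and 0 at an unadjusted p-value under 0.05. Every defining marker was detected in at least 1 group except the haemocyte gene He, which was listed at 0 in both. The part of these tissue markers in the CYP4-clan differences was not tested.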

How the data were processed

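Per the labels' protocols, libraries of polyadenylated RNA were read from both ends on an Illumina MiSeq. Per the submitters' processing notes, TopHat2, Cufflinks and Cuffdiff were used, while the sources used here give no version, setting, build or annotation. The authors deposited 1 Cuffdiff table with FPKM per group, a log2 fold change without pseudocount, a test statistic (a score, not used) and p- and q-values. With no value per library, no error, replicate-level test or paired fit could be computed, and p-values can reflect no more than the difference between libraries, whose separate origin the labels do not state. Of 16198 rows 7058 were tested, 9135 not tested and 5 set aside for too many fragments.

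RefSeq accessions were matched to NCBI Release 6 symbols (30273 of 30529). Coordinates are the table's, with a 1-based start, and 98.7% of 15397 rows with 1 symbol overlapped the Release 6 position. Exon overlaps came from Ensembl release 115. The symbol phm of the CYP2-clan list matched no row. All members were named, in full where called or with at least 5 FPKM in a group. Among other genes only Kr-h1, Cyp4g1, some electron donors and called context genes could be named, with Uro, Irk3 and Rab3-GEF added after their values were seen. The members, lists and rules were chosen with earlier results of these data known. Counting and adjustment were tested on simulated data. Python 3.11.15, numpy 2.4.6, pandas 2.3.3 and matplotlib 3.10.9 were used.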

Additional observations from a re-analysis of the deposited data

How the results depend on the processing

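No paired analysis was possible because the deposited table holds 1 value per group and no value per library, and for the same reason no replicate could be left out in turn. The count of members called higher, 1 in the main setting, was 0 at a q-value of at most 0.01, 0 when an absolute log2 ratio of at least 1 was also required, and 0 when rows that share a locus were left out. The count of members called lower, 3 in the main setting, was 1 with the absolute log2 ratio of at least 1, leaving Cyp4e3. That bound was applied with the pseudocount of 1 FPKM. With a pseudocount of 10 FPKM the log2 ratio of Cyp4e3, -0.83, falls short of it. At a q-value of at most 0.01 the count called lower was 2, because the call of Cyp4e3 (q = 0.0115, the authors' deposited table) ended. The other alternatives left both counts as they were. A q-value of at most 0.10 can only add calls. Every called member reaches 10 FPKM in a group, Cyp4e3 and Cyp4s3 only in the group where they were higher. Neither of these settings could lower a count, so they say nothing on its stability. The median log2 ratio of the tested members lay between 0.00 and 0.04 under 5 alternatives. In each of them it was the ratio of Cyp311a1, whose levels were nearly equal under both labels. A pseudocount or centring could move that ratio little, so the narrow range does not show stability. The median of Cyp4e, -0.94 in the main setting, was -0.55 with a pseudocount of 10 FPKM, -0.32 with every listed member above 0 and -1.55 with rows of their own locus, where only Cyp4e3 is left. The median of Cyp4d was 0.16 with every listed member above 0. The medians of Cyp4ac and Cyp4p moved by less than 0.1, but few alternatives could move them. None of their tested rows has a locus of its own, so that alternative could not be run. Taking every listed member above 0 gave the same rows again. Their small movement therefore does not show that they are more stable than Cyp4e. A pseudocount cannot turn the direction of a single gene, and centring shifted every ratio by the same small amount, so these say nothing on the stability of single directions. With every listed member above 0, the untested Cyp4e1 and Cyp4d20 enter. The medians then become the ratios of Cyp4e2 (-0.32) and Cyp4d2 (0.16). A larger pseudocount pulls every ratio towards 0, and most strongly at low FPKM. Unknown depth and the absence of replicate values limit every statement on scarce members.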
